A study of Arabidopsis thaliana with 6 samples.

Results

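Mitogen-activated protein (MAP) kinase cascades of plant immunity were followed in whole shoots of 2-week-old Arabidopsis thaliana through 10 genes, taken by their locus identifiers from the 37051 genes of the count table. They are 9 kinases and 1 substrate: MPK3 (AT3G45640), MPK6 (AT2G43790), MKK4 (AT1G51660) and MKK5 (AT3G21220) of the MPK3/MPK6 branch, and MEKK1 (AT4G08500), MKK1 (AT4G26070), MKK2 (AT4G29810), MPK4 (AT4G01370), MPK11 (AT1G01560) and MKS1 (AT3G18690) of the MPK4 branch. Transcripts were quantified by 3' RNA-seq, which reads the ends of transcripts, in 3 libraries of the wild type accession Col-0 and 3 of the mutant los2-5, by its name an allele of LOS2, the gene of a cytosolic enolase of glycolysis. Both genotypes were kept cold for 2 days and then grown on soil at 22 °C in constant light, and each library is a pool of 3 plants, with the replicates of a genotype taken from different pots. No treatment with a pathogen or elicitor is named for either genotype, and the labels name a single mutant allele, so the values describe untreated shoots of 1 mutant line. Levels are given as CPM, the counts of a gene relative to the scaled size of its library. LOS2 itself was at 110, 124 and 106 CPM in Col-0 against 120, 115 and 123 CPM in los2-5. Its log2 fold change (los2-5 over Col-0 throughout) was 0.08 ± 0.12 (SE, adjusted p = 0.71, edgeR), which checks nothing about the genotype, because no source used here gives the position of the lesion.

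A MAP kinase cascade passes a signal through phosphorylation from a MAP kinase kinase kinase to a MAP kinase kinase and on to a MAP kinase, which phosphorylates proteins such as transcription factors. In Arabidopsis, receptors of microbial patterns switch on a branch in which MKK4 and MKK5 activate MPK3 and MPK6, and another in which MEKK1, MKK1 and MKK2 activate MPK4. The MPK3/MPK6 branch promotes defence and also acts in stomatal development. Loss of the MPK4 branch brings dwarf plants with constant defence, because the NLR receptor SUMM2 guards it. The kinases are switched on at the protein level, which RNA-seq does not measure: these values are transcript levels alone.

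The site at which a MAP kinase is switched on shows how alike the 4 kinases are, and for that reason its coding bases are printed here. Each sequence gives 45 bases of the coding strand of the RefSeq TAIR10.1 gene model, 5′ to 3′, and the capitals are the codons for the threonine, glutamate and tyrosine of the activation loop, in which the threonine and the tyrosine are phosphorylated by the MAP kinase kinase.
MPK3 (chromosome 3, coding bases 568 to 612): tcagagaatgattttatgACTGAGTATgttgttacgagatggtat
MPK6 (chromosome 2, coding bases 643 to 687): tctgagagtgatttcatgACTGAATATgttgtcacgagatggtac
MPK4 (chromosome 4, coding bases 583 to 627): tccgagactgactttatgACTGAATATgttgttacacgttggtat
MPK11 (chromosome 1, coding bases 574 to 618): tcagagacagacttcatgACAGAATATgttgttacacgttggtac
MPK4 and MPK11 shared 40 of these 45 bases, and MPK3 and MPK6 shared 39. Across the branches MPK3 and MPK4 shared 38, MPK6 shared 36 with each of MPK4 and MPK11, and MPK3 and MPK11 shared 35. Over the whole coding sequence MPK4 and MPK11 were 83.7% identical and MPK3 and MPK6 64.7%. In the last 300 bases of the transcripts, where 3' reads are expected, no run above 13 bases was shared by any compared pair that included a cascade gene.

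Of the 10 genes, 9 passed the filter on low counts and 0 were called different between los2-5 and Col-0 by the quasi-likelihood test of edgeR at an adjusted p of at most 0.05. Over all 13952 genes tested the same test called 20.5%, with 9.92% higher and 10.6% lower in los2-5. That is 1384 higher and 1477 lower, which became 2179 higher and 989 lower with libraries scaled by their size alone. At an unadjusted p under 0.05, 2 of the 9 were lower in los2-5 (MPK4 and MKS1) and 0 were higher, against 33.7% of all genes tested in either direction, while DESeq2 and limma-voom each called 0. For 3 of the 9 (33.3%) every library of a genotype lay on the same side of the other genotype, against 37.2% of all genes tested. The median log2 fold change was 0.25 over the 9 genes and 0.02 over all genes tested. The 95% intervals of the 9 fold changes reached 1.25-fold to 1.46-fold to either side of the estimate. Without Col-0 replicate 3 the total over all genes was 1758 calls in place of 2861.

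**Figure D1:**
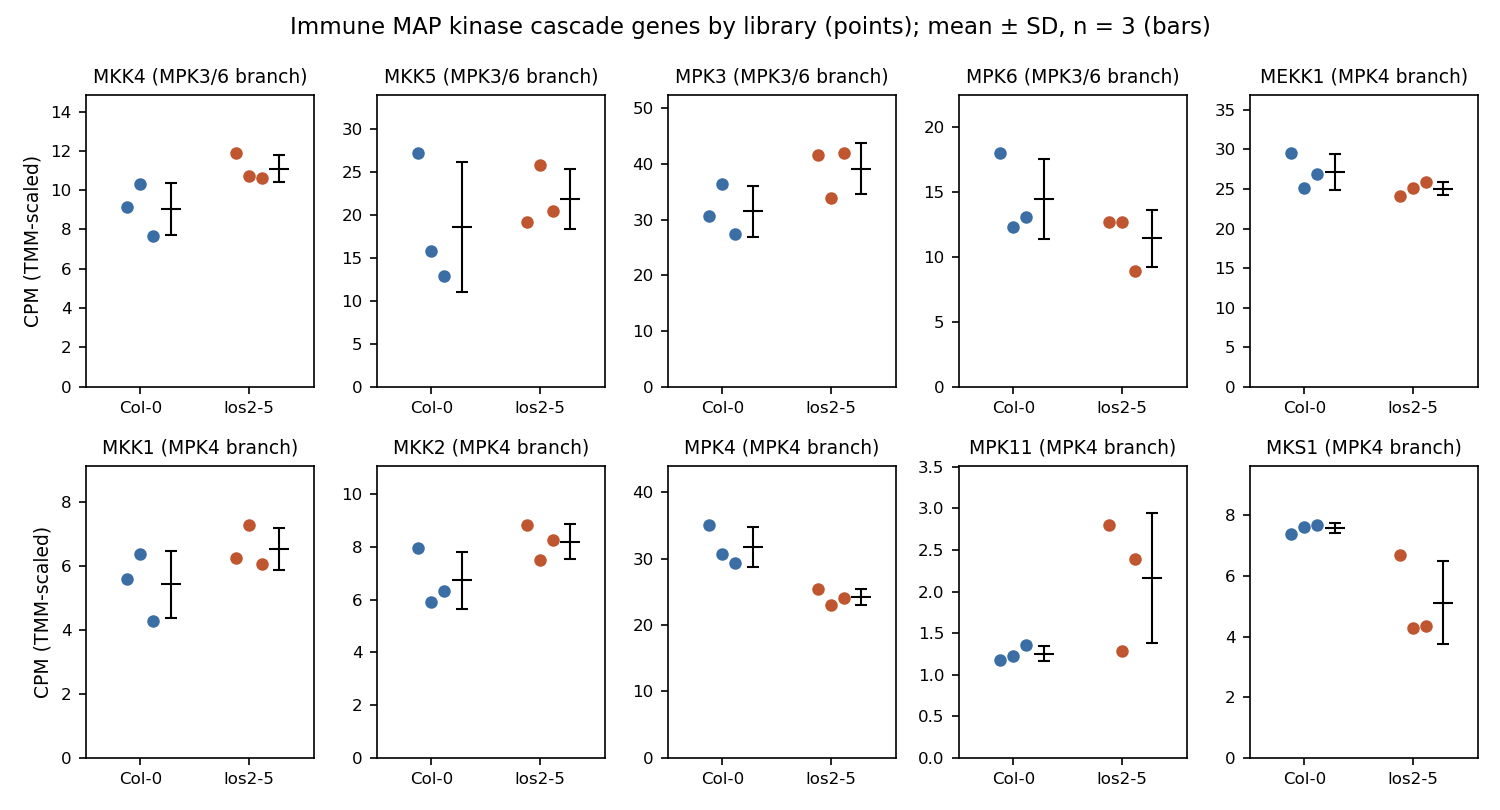
Level of each of the 10 cascade genes in CPM on TMM-scaled library sizes (vertical axis, from 0) in the 3 Col-0 (blue) and 3 los2-5 (orange) libraries, with the mean ± SD. MPK4 and MKS1 are below Col-0 in all los2-5 libraries, MKK4 is above in all, and the other genes overlap between the genotypes.

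MPK3 and MPK6 are the MAP kinases of the first branch, and their values pointed in opposite directions. MPK3 stood at 30.7, 36.4 and 27.4 CPM in Col-0, while los2-5 gave 41.7, 33.9 and 41.9 CPM. The genotypes overlapped, since los2-5 replicate 2 lay below Col-0 replicate 2. The log2 fold change was 0.32 ± 0.16 (SE), with a 95% interval of -0.01 to 0.64 and an adjusted p of 0.16 in edgeR. With libraries scaled by their size alone MPK3 was called higher (0.44, adjusted p = 0.045), the lowest of the adjusted p over 14 alternatives, which reached 0.51. That scaling moved all genes to a median of 0.14, and relative to this median MPK3 stood at 0.30. MPK6 was at 18.0, 12.3 and 13.1 CPM in Col-0 against 12.7, 12.7 and 8.90 CPM in los2-5. The log2 fold change was -0.33 ± 0.21 (adjusted p = 0.30). Col-0 replicate 1 was the highest of the 6 libraries and los2-5 replicate 3 the lowest, with the others close together.

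MKK4 and MKK5 are the kinases that act on MPK3 and MPK6. MKK4 was measured at 9.15, 10.3 and 7.69 CPM in Col-0 and at 11.9, 10.7 and 10.6 CPM in los2-5. All los2-5 libraries were above all Col-0 libraries, but the gap between the nearest of them was smaller than the spread within Col-0. The log2 fold change was 0.30 ± 0.21 (adjusted p = 0.35, edgeR). MKK5 was at 27.1, 15.7 and 12.9 CPM in Col-0 and at 19.2, 25.8 and 20.4 CPM in los2-5. The spread of MKK5 came mostly from Col-0 replicate 1, which was the highest of all 6 libraries. The log2 fold change was 0.25 ± 0.23 (adjusted p = 0.47). Leaving out that library gave 0.60 (adjusted p = 0.061) and leaving out Col-0 replicate 3 gave 0.03, neither of them called. MKK4 and MKK5 are 77.3% identical in their coding sequence and share a run of 40 bases, but none longer than 9 in the last 300 bases of the transcripts. MKK5 overlaps AT3G21230 on the opposite strand over 459 bases, a gene with 18 counts in Col-0 and 40 in los2-5 against 213 and 303 for MKK5. MKK4 overlaps AT1G51670 on the same strand over 204 bases. AT1G51670 had 9 counts in Col-0 and 19 in los2-5, against 107 and 154 for MKK4. The part of these overlaps in the values was not tested.

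MEKK1, the MAP kinase kinase kinase at the top of the MPK4 branch, was at 29.5, 25.1 and 26.9 CPM in Col-0 and at 24.2, 25.1 and 25.8 CPM in los2-5. The libraries of the genotypes were intermixed. Its log2 fold change was -0.11 ± 0.16 (adjusted p = 0.66), with a 95% interval of -0.44 to 0.21, and with libraries scaled by size alone the value was 0.0084. MKK1 (listed as MEK1 in the reference) and MKK2 act together below MEKK1. MKK1 was at 5.61, 6.39 and 4.30 CPM in Col-0 and at 6.26, 7.31 and 6.08 CPM in los2-5, and its log2 fold change was 0.28 ± 0.26 (adjusted p = 0.49). MKK2 was at 7.97, 5.90 and 6.33 CPM in Col-0 and at 8.85, 7.52 and 8.25 CPM in los2-5, with a log2 fold change of 0.30 ± 0.24 (adjusted p = 0.41). Both overlapped between the genotypes and rest on few counts, 19 to 34 per library for MKK1 and 24 to 41 for MKK2. MKK1 also overlaps AT4G26080 on the opposite strand over 22 bases. AT4G26080 had more counts, 157 in Col-0 and 128 in los2-5 against 64 and 91 for MKK1, and its part was not tested.

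MPK4, the MAP kinase of this branch, had the lowest unadjusted p of the 9 genes. Col-0 gave 35.1, 30.7 and 29.4 CPM, while los2-5 gave 25.5, 23.0 and 24.1 CPM. Every los2-5 library lay below every Col-0 library. The mean was 31.7 ± 3.0 CPM (SD, n = 3) in Col-0 and 24.2 ± 1.24 CPM in los2-5. This is a log2 fold change of -0.39 ± 0.16 with a 95% interval of -0.71 to -0.06. The unadjusted p of edgeR was 0.021 and the adjusted p was 0.082, and the alternatives gave 0.077 to 0.23, so MPK4 was called in 0 of them. AT4G01380 overlaps MPK4 on the opposite strand over 929 bases. AT4G01390 overlaps it on that strand over 100 bases and had 3 counts in Col-0 and 0 in los2-5. The counts of AT4G01380 were 35 in Col-0 and 23 in los2-5 in all, against 374 and 336 for MPK4, and no strand setting is stated for the counting, so reads of the pair may not be separated.

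MPK11, the closest relative of MPK4, is known to be activated alongside it by microbial patterns. Its counts were 4, 5 and 6 in Col-0 and 13, 6 and 11 in los2-5, or 1.18 to 1.36 CPM and 1.29 to 2.81 CPM. It did not pass the filter, and the genotypes overlapped through los2-5 replicate 2. In the fit without a filter its log2 fold change was 0.76 ± 0.50 (adjusted p = 0.36, edgeR).

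MKS1 encodes a protein with a VQ motif that MPK4 phosphorylates and that links MPK4 to the transcription factors WRKY25 and WRKY33. It was at 7.38, 7.62 and 7.69 CPM in Col-0 and at 6.69, 4.30 and 4.34 CPM in los2-5. All los2-5 libraries were below the narrow range of Col-0, with replicate 1 nearest to it. The log2 fold change was -0.56 ± 0.26 (unadjusted p = 0.042, adjusted p = 0.13, edgeR). Without los2-5 replicate 1 MKS1 was called lower (-0.81, adjusted p = 0.049). The other alternatives reached an adjusted p of 0.31. MKS1 overlaps AT3G18680 on the opposite strand over 159 bases. AT3G18680 was called lower as well, from 22.0 ± 0.78 to 11.9 ± 3.88 CPM (-0.89 ± 0.21, adjusted p = 0.0038), and its part in the value of MKS1 was not tested.

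**Figure D2:**
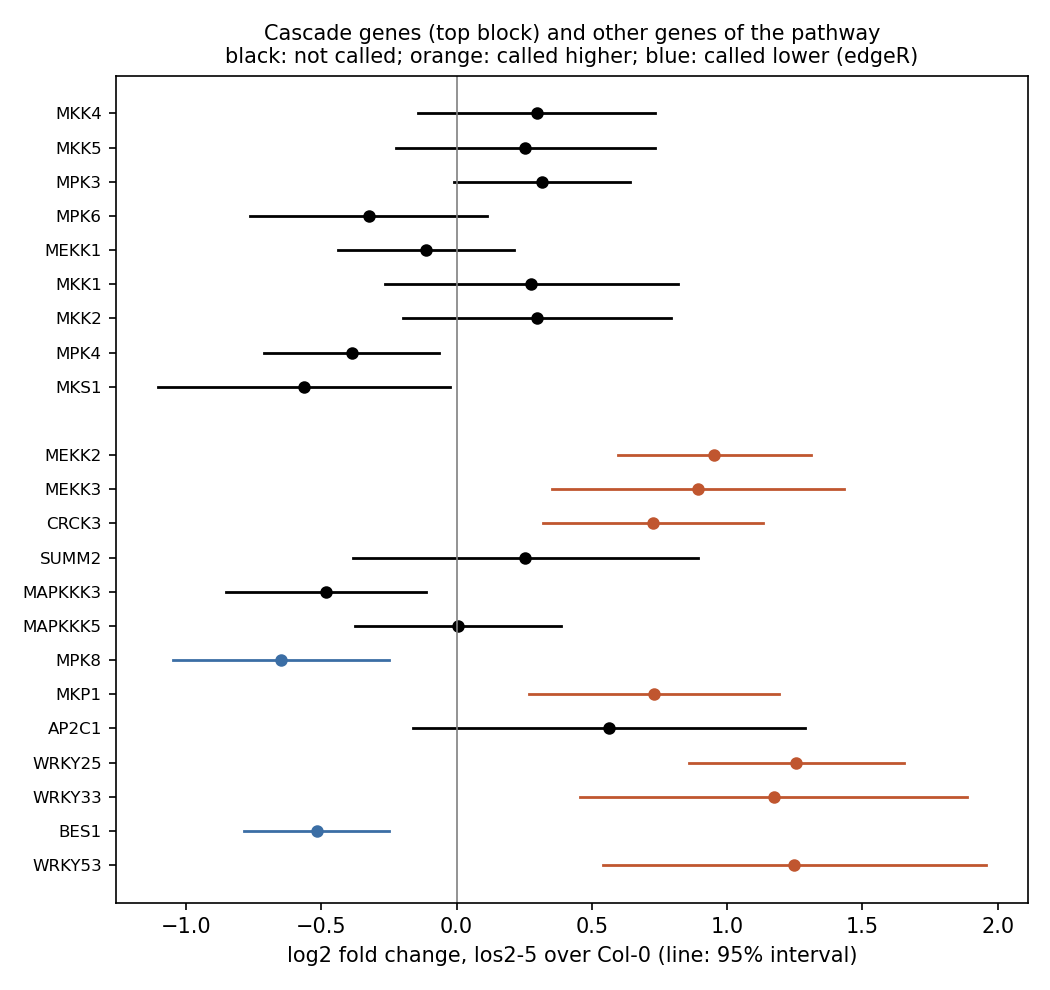
Log2 fold change of los2-5 over Col-0 (horizontal axis) with its 95% interval for the 9 cascade genes tested (top) and for 13 other genes of the pathway (below), coloured by the edgeR call. The cascade genes are all black, between -0.56 and 0.32, while MEKK2, MEKK3, CRCK3, MKP1, WRKY25, WRKY33 and WRKY53 are called higher (orange) and MPK8 and BES1 lower (blue).

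Set against each other, the 4 genes of the MPK3/MPK6 branch had a median log2 fold change of 0.27 and the 5 tested genes of the MPK4 branch one of -0.11, with 0 called in either by edgeR, DESeq2 or limma-voom. At an unadjusted p under 0.05, 0 genes of the first branch and 2 of the second passed in edgeR. The direction was not uniform within a branch, since MPK6 lay below 0 and MKK1 and MKK2 above. The balance was also taken within each library, where a ratio of counts does not depend on how libraries are scaled. Of the counts of all 10 genes, the MPK3/MPK6 branch held 49.5%, 49.3% and 44.6% in the Col-0 libraries and 53.5%, 54.8% and 53.6% in the los2-5 libraries. The groups did not overlap, and the log2 ratio of the branches was -0.13 ± 0.16 (SD, n = 3) in Col-0 and 0.23 ± 0.04 in los2-5, a difference of 0.36. Single genes did not overlap for 37.2% of all genes tested, and no such share was computed for sums of genes. The sums weigh genes by their counts. MPK3 and MKK5 weigh most in their branch and MEKK1 and MPK4 in theirs, and none of them was called.

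The ratio of MPK3 to MPK4 counts was 0.874, 1.18 and 0.931 in Col-0 and 1.64, 1.48 and 1.74 in los2-5. Its lowest value in los2-5 was above the highest in Col-0, and the mean went from 0.996 ± 0.165 to 1.62 ± 0.132. This ratio joins the higher value of MPK3 and the lower value of MPK4, neither of them called, and is no result beyond those. How often ratios of other gene pairs separate the genotypes was not computed. For MPK6 the ratio to MPK4 was 0.453 ± 0.057 in Col-0 and 0.474 ± 0.094 in los2-5, and the libraries overlapped. Inside the MPK3/MPK6 branch, the ratio of MPK3 to MPK6 went from 2.25 ± 0.64 in Col-0 to 3.55 ± 1.04 in los2-5, also with overlap. A higher ratio to MPK4 was thus seen for MPK3 and not for MPK6. These balances were not tested, because the genes were chosen with results of these libraries known. They compare genotypes and not the levels of different genes, whose transcripts may be captured unequally.

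**Figure D3:**
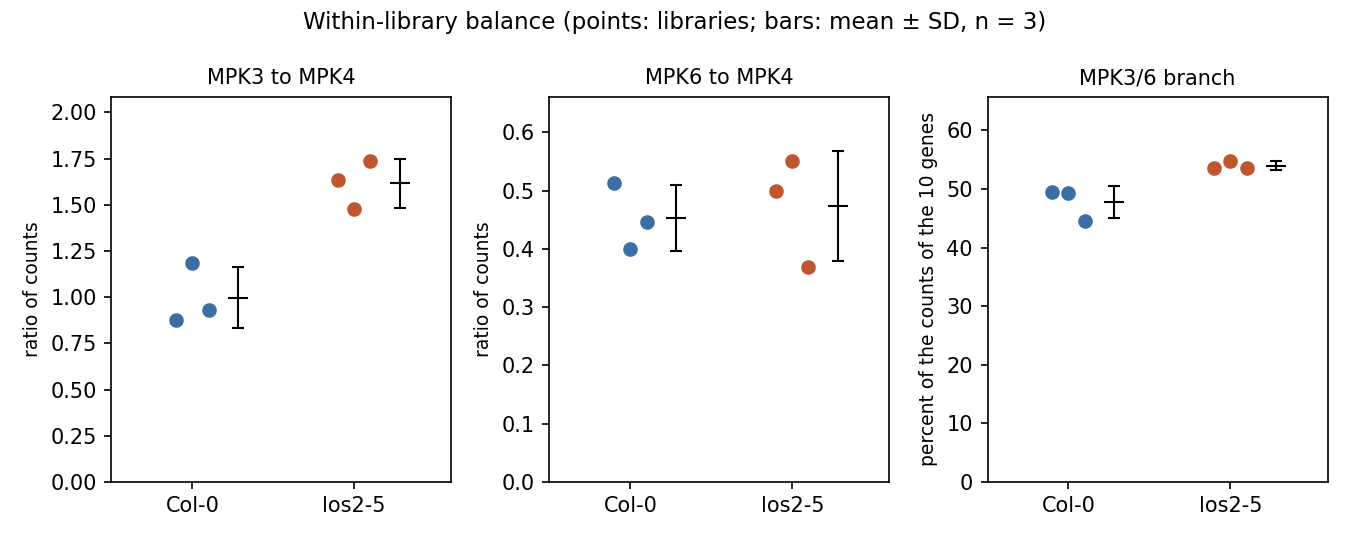
Within-library ratio of MPK3 to MPK4 counts, ratio of MPK6 to MPK4 counts, and share of the MPK3/MPK6 branch in the counts of the 10 genes (vertical axes, from 0) for the Col-0 (blue) and los2-5 (orange) libraries, with mean ± SD (n = 3). The MPK3 to MPK4 ratio is 0.874 to 1.18 in Col-0 and 1.48 to 1.74 in los2-5, while the MPK6 to MPK4 ratios overlap. MPK3, MPK4 and MPK6 were each not called, and the ratios were not tested.

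MEKK1 has relatives close by on chromosome 4, and these were called higher. MEKK2 (listed as MAPKKK9, also called SUMM1) promotes the defence that SUMM2 sets off when the MPK4 branch is lost, and MEKK3 is the third gene of the group. MEKK2 was at 26.3, 16.5 and 22.4 CPM in Col-0 and at 38.2, 40.4 and 46.9 CPM in los2-5. It rose with a log2 fold change of 0.95 ± 0.17 (adjusted p = 3.9e-04, edgeR) and was called in all 14 alternatives. MEKK3 was at 7.67, 7.62 and 3.62 CPM in Col-0 against 11.7, 9.67 and 13.2 CPM in los2-5, and it rose as well (0.89 ± 0.26, adjusted p = 0.018). The call of MEKK3 was lost in DESeq2 (adjusted p = 0.054) and when Col-0 replicate 3 (0.58, adjusted p = 0.16) or los2-5 replicate 3 (adjusted p = 0.066) was left out. Within libraries, the ratio of MEKK2 to MEKK1 counts was 0.890, 0.657 and 0.832 in Col-0 and 1.58, 1.61 and 1.82 in los2-5, with no overlap. This ratio restates the higher MEKK2 beside a MEKK1 that was not called, and is no separate result.

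The 3 genes lie on the minus strand, in the RefSeq TAIR10.1 annotation at 4:5403671-5407320 for MEKK1, 4:5387351-5391575 for MEKK2 and 4:5383688-5387260 for MEKK3. MEKK1 and MEKK2 are 64.1% identical in coding sequence with a shared run of 87 bases, but no run over 13 in the last 300 bases. MEKK2 and MEKK3 share a run of 67 bases and none over 14 at the end. Their counts are uncertain as far as reads reach into those runs, because the read length and the treatment of reads with several matches are not stated.

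**Figure D4:**
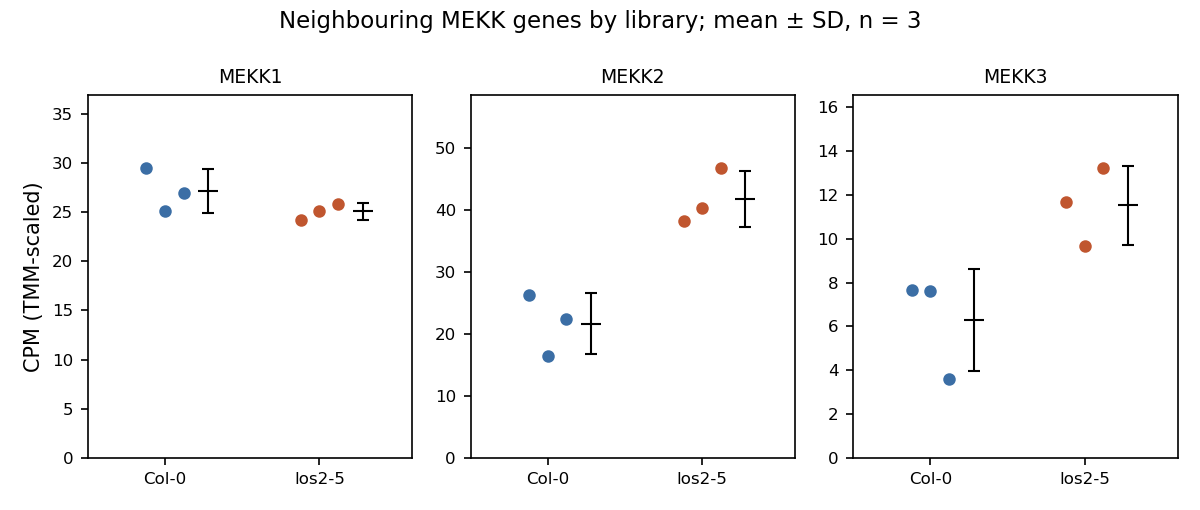
Level of MEKK1, MEKK2 and MEKK3 in CPM (vertical axes, from 0) in the Col-0 (blue) and los2-5 (orange) libraries, with mean ± SD (n = 3). MEKK1 is between 24.2 and 29.5 CPM in all 6 libraries, while MEKK2 goes from 16.5 to 26.3 CPM in Col-0 to 38.2 to 46.9 CPM in los2-5.

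Other parts of the guard system around MPK4 were mixed. The list holds 7 genes, of which 6 could be tested: 2 rose (MEKK2 and CRCK3) and 4 were not called, with 0 lower by edgeR, 0 lower at an unadjusted p under 0.05 and 0 lower in DESeq2 and limma-voom. For this list and those that follow, the share of all genes tested that edgeR called was 9.92% higher and 10.6% lower. CRCK3, a kinase that MPK4 phosphorylates and through which SUMM2 monitors it, was at 14.8, 17.2 and 18.5 CPM in Col-0 and at 21.2, 26.2 and 36.7 CPM in los2-5. Its log2 fold change was 0.73 ± 0.20 (adjusted p = 0.011, edgeR), and its call was lost when Col-0 replicate 1 (0.63, adjusted p = 0.057) or los2-5 replicate 3 (0.48, adjusted p = 0.093) was left out. SUMM2 itself averaged 3.61 ± 0.70 CPM in Col-0 against 4.32 ± 0.59 CPM in los2-5. Its log2 fold change was 0.25 ± 0.31, not called (adjusted p = 0.60).

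Upstream of MKK4 and MKK5, MAPKKK3 (listed as MAP3KA) and MAPKKK5 carry signals from pattern receptors. MAPKKK3 averaged 26.5 ± 4.19 CPM in Col-0 against 18.9 ± 2.97 CPM in los2-5 (-0.48 ± 0.18, adjusted p = 0.059). It was called lower without a filter (adjusted p = 0.049), and when Col-0 replicate 3 (0.046) or los2-5 replicate 1 (0.032) was left out. MAPKKK5 was at 14.9 ± 1.07 and 14.9 ± 1.60 CPM (adjusted p = 0.99). Of 19 MAP kinase kinase kinases outside the 10 genes, 9 were tested, 2 rose (MEKK2 and MEKK3), 0 fell in edgeR, DESeq2 and limma-voom, and 7 were not called. MEKK2 is also counted in the guard list above. Before adjustment, 3 were higher and 1 was lower at p under 0.05, the additional gene being YDA (0.48 ± 0.22, adjusted p = 0.13), chosen after its values were seen, which acts with MKK4 and MKK5 in stomatal development.

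Among the 16 other MAP kinases 12 were tested, 1 fell and 0 rose in edgeR, DESeq2 and limma-voom, with 1 higher (MPK2, 0.35 ± 0.15, chosen after its values were seen) and 1 lower at an unadjusted p under 0.05. The one that fell was MPK8, known for a role in wound-induced oxidative signalling, from 27.1 ± 1.64 to 17.3 ± 5.42 CPM (-0.65 ± 0.19, adjusted p = 0.019). The call was lost with library size alone (0.055) and when Col-0 replicate 3 (0.086), los2-5 replicate 2 (0.089) or los2-5 replicate 3 (0.087) was left out. Of 6 other MAP kinase kinases 2 were tested and 0 were called by edgeR, DESeq2 or limma-voom, with 1 lower at an unadjusted p under 0.05. That one was MKK9 (-0.72 ± 0.34, adjusted p = 0.13), chosen after its values were seen.

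Phosphatases switch the MAP kinases off again. Of 10 listed, 6 were tested: 1 rose, 5 were not called and 0 were lower, with 2 higher and 0 lower at an unadjusted p under 0.05, among them MKP2 (0.44 ± 0.16, adjusted p = 0.058), chosen after its values were seen. DESeq2 called 0 and limma-voom 1. The one that rose was MKP1, which inactivates MPK6 and MPK3 and holds back salicylic acid responses. It was at 10.03, 8.11 and 12.9 CPM in Col-0 and at 12.3, 19.3 and 20.2 CPM in los2-5, giving a log2 fold change of 0.73 ± 0.22 (adjusted p = 0.023, edgeR). Replicate 1 of los2-5 lay within the Col-0 range. The call was lost in DESeq2 (adjusted p = 0.060) and when any of 4 libraries was left out: Col-0 replicate 1 (0.072), Col-0 replicate 2 (0.12), los2-5 replicate 2 (0.085) or los2-5 replicate 3 (0.094). AP2C1, a phosphatase that acts on MPK4 and MPK6, had a log2 fold change of 0.56 ± 0.35 and was not called (adjusted p = 0.27).

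Genes of known substrates were tested for 12 of 16 listed, and 2 rose, 1 fell and 9 were not called, with a median log2 fold change of 0.01. WRKY25, a partner of MKS1, was at 11.8, 10.1 and 8.37 CPM in Col-0 and at 22.0, 22.8 and 26.9 CPM in los2-5. It rose with a log2 fold change of 1.26 ± 0.19 (adjusted p = 6.6e-05, edgeR). WRKY33, which MPK3 and MPK6 phosphorylate and which drives the synthesis of camalexin, rose from 2.07 ± 0.54 to 4.61 ± 0.65 CPM (1.17 ± 0.35, adjusted p = 0.019). Its counts were 9, 8 and 7 in Col-0, near or under the cutoff of the filter, and 18, 24 and 22 in los2-5. WRKY33 thus passed the filter through the genotype in which it is higher, and its place among the 2 that rose is no support for a change of the list. The call was lost in DESeq2 (0.096) and when Col-0 replicate 2 (0.059), Col-0 replicate 3 (0.11) or los2-5 replicate 2 (0.067) was left out. BES1, a transcription factor of brassinosteroid signalling that MPK6 phosphorylates, fell from 81.3 ± 4.43 to 56.8 ± 1.39 CPM (-0.52 ± 0.13, adjusted p = 0.0063).

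Of 7 reporter genes of the flagellin response 1 passed the filter, WRKY53, at 2.23 ± 0.42 CPM in Col-0 against 5.26 ± 1.42 CPM in los2-5 (1.25 ± 0.34, adjusted p = 0.012). WRKY53 had 8 or 9 counts in each Col-0 library, near or under the cutoff of the filter, and 18 to 31 in los2-5. WRKY53 entered the test through the genotype in which it is higher and says nothing of the other reporters. The call was lost in DESeq2 (0.058) and when Col-0 replicate 3 (0.074) or los2-5 replicate 3 (0.068) was left out. NHL10 (listed as YLS9), named after its values were seen, had 2, 0 and 1 counts in Col-0 and 13, 8 and 28 in los2-5 and was not tested under the filter. Of the other untested reporters, FRK1 had 3 counts in all in Col-0 and 12 in los2-5, and WRKY29 had 1 and 2. PHI1 had 21 and 16, WRKY22 had 15 and 12, and CYP81F2 had 16 in each genotype.

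The promoter of MPK4 is printed because this gene had the lowest unadjusted p of the set. It gives the 300 bases before the annotated gene start in RefSeq TAIR10.1, 5′ to 3′ on the strand of the gene. Capitals mark the W-box core TTGAC or its reverse complement GTCAA, the element that WRKY factors bind.
MPK4 (chr4:566617-566916, plus strand): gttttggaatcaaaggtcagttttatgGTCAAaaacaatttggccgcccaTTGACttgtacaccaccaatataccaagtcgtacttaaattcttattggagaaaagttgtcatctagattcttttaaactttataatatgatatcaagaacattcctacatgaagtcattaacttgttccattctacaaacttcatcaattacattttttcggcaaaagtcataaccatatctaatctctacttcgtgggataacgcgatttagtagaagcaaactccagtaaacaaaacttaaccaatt
The core occurred 2 times in the MPK4 window. At least 1 match was found for 5 of the 9 cascade genes whose window was read, and for 50.4% of 27443 windows of protein-coding genes. The windows of MEKK1 and MEKK2 held 0 matches, which says only that these letters are not in those 300 bases. The window of MEKK3, which overlaps the MEKK2 gene, held 1.

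The genes with the most similar pattern were found as those with the smallest Euclidean distance in log2 CPM centred over the 6 libraries, restricted to genes whose mean reached 10 CPM. For MPK3 they were AGO2, which encodes an Argonaute protein of antiviral defence (distance 0.13), AT5G57655 and MTM2. AGO2 ran from 20.1 to 24.3 CPM in Col-0 and from 23.4 to 31.0 CPM in los2-5 and, like MPK3, was not called (adjusted p = 0.15). For MPK4 they were NdhO, which encodes a subunit of the chloroplast NADH dehydrogenase-like complex (distance 0.08), AT1G73885 and AT2G01820. NdhO ran from 69.1 to 77.6 CPM in Col-0 and from 52.4 to 58.5 CPM in los2-5 and was called lower (adjusted p = 0.049). AT1G73885 was called lower too (adjusted p = 0.021, edgeR), and AT2G01820 was not called (adjusted p = 0.13). For MPK11 they were AT4G09640, EDL1 and AT4G26910, with distances of 0.27 to 0.39. Of these AT4G26910 was called higher (adjusted p = 0.01, edgeR), while the pattern of MPK11 itself rests on 4 to 13 counts per library. All these genes share the direction of their member because they were picked by closeness to its values.

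Markers of cell types were measured beside the cascade genes. Of 4 leaf mesophyll markers 4 fell, and their summed level was 24519 to 25507 CPM in the Col-0 libraries and 15791 to 16777 CPM in los2-5. The call of LHCB2.1 was lost with library size alone (adjusted p = 0.13) and when Col-0 replicate 2 (0.16), Col-0 replicate 3 (0.11) or los2-5 replicate 1 (0.092) was left out, and that of CAB3 without Col-0 replicate 3 (0.053). Of 3 phloem markers 2 were tested and 1 fell (SUC2). Of 8 stomatal lineage markers 4 were tested and 0 were called by edgeR, DESeq2 or limma-voom, with 0 at an unadjusted p under 0.05, and their summed level was 45.2 to 55.5 CPM in Col-0 and 41.7 to 53.7 CPM in los2-5. Root markers summed to at most 1.30 CPM and flower and seed markers to at most 2.66 CPM in any library, with EXP7, CASP2 and OLEO1 at 0 in all. CASP1 had 13 counts in Col-0 and 14 in los2-5, and AG had 13 and 2. None of these markers passed the filter, and their low levels do not by themselves establish the label of the tissue. The values of MPK4 and MKS1, which were not called, lay lower in los2-5 as the mesophyll markers did, whose part in these values was not tested. In whole shoots, fewer cells of a type and less RNA per cell cannot be told apart. Library totals were 3563033 to 4598645 counts, and the 10 cascade genes held 582 to 740 counts of each.

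**Figure D5:**
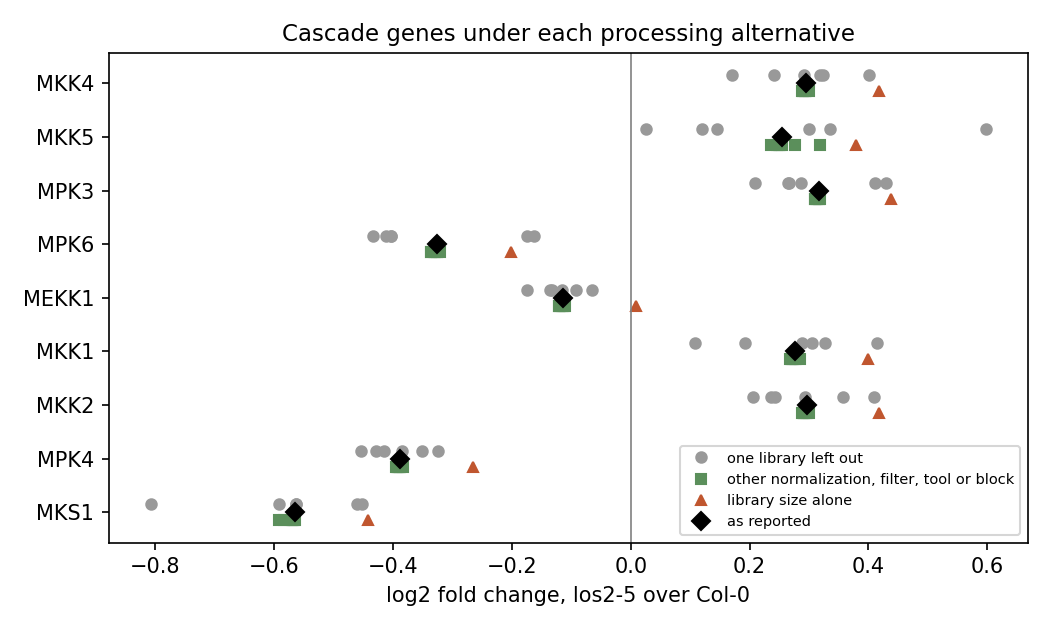
Log2 fold change of los2-5 over Col-0 (horizontal axis) of the 9 tested cascade genes as reported (diamond) and under 14 alternatives: 6 with a library left out (circles), library size alone (triangle) and 7 others (squares). MEKK1 is the gene whose value crosses 0, at 0.0084 with library size alone, and MKK5 spreads from 0.03 to 0.60.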

How the data were processed

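The authors deposited raw read counts per gene for 6 libraries of 3' RNA-seq, which entered the tests unaltered. STAR, edgeR and TAIR10 appear in the submitters' processing notes; no source used here gives the counting tool, the annotation or the strand setting. Every column matched 1 sample. The 10 cascade genes, the other gene lists and the tests were chosen with earlier results of these data known.

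Genes were kept with filterByExpr (minimum count 10, minimum total 15), leaving 13952 genes with 99.5% of the counts. The minimum count acts as a CPM cutoff set at the median library size, to be reached in at least 3 libraries. Libraries were scaled by TMM factors and the genotypes compared with glmQLFit (robust) and glmQLFTest of edgeR 4.0.16 in R 4.3.3, fitting genotype alone, with Benjamini-Hochberg adjustment over all genes kept. The common dispersion was 0.0155. CPM uses TMM-scaled library sizes; standard errors are the absolute log2 fold change over the square root of F, and intervals are at 95%. Alternatives were RLE factors, library size alone, no filter, a filter of 1 CPM in 3 libraries, DESeq2 1.42.0, limma-voom (limma 3.58.1), no robust step, a replicate block and each library left out. The procedure was tested on simulated data, where it recovered 32.8% of 1.5-fold, 80.6% of 2-fold and 98.5% of 4-fold changes. Of its 148 calls there, 7 were false. Pattern distances used a pseudocount of 0.5 CPM.

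Genes named were the 10, up to 4 called genes per list with the smallest p, MEKK2, SUMM2, CRCK3, MAPKKK3, MAPKKK5, MKP1, AP2C1, WRKY33, LOS2 and the 3 nearest patterns of MPK3, MPK4 and MPK11. AT3G18680, AT3G21230, AT4G01380, AT4G01390, AT1G51670, AT4G26080, NHL10, MPK2, MKK9, YDA and MKP2 were added after their values were seen. So were the reporters FRK1, WRKY29, PHI1, WRKY22 and CYP81F2. Sequences and coordinates come from RefSeq TAIR10.1, in which all 10 loci were matched by locus tag. The deposited table has no coordinates to set beside it. The promoter of 1 cascade gene is not reported here.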

Additional observations from a re-analysis of the deposited data

How the results depend on the processing

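Over 14 alternatives the number of cascade genes called lower or higher was 0 with 2 exceptions: library size alone called 1 higher (MPK3), and leaving out single libraries gave 0 to 1 lower, the 1 being MKS1 without los2-5 replicate 1, and 0 higher. The number of all genes called ran from 1758 (without Col-0 replicate 3) to 3143 (without los2-5 replicate 1) when 1 library was left out. MEKK1 turned from -0.11 to 0.0084 with library size alone, a scaling that moved the median of all genes by 0.12 relative to TMM. The log2 fold changes of the other 8 tested genes kept their direction in all 14. The difference in branch balance was 0.26 to 0.41 with 1 library left out. Deviations of same-numbered libraries correlated at 0.05, -0.0008 and -0.05, and 2 of 6 libraries correlated best with their own number. With 3 libraries per genotype, these values cannot settle whether the replicate numbers pair the samples. With the replicate number as a block 3115 genes and 0 of the cascade genes were called, and MAPKKK3 was called lower (adjusted p = 0.045). Depth limits MPK11, with 4 to 13 counts per library, the most.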
